A study of Homo sapiens with 9 samples.

Results

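The control siRNA cells of a knockdown study were profiled as they stood at harvest. Their 3 libraries were chosen by label, as every library that received a negative control siRNA (NC), and make up 3 of the 9 libraries of the study. Gene expression was measured by bulk RNA-seq in cells labelled NCI-H69, an established human small cell lung cancer line, 48 hours after transfection. The other 6 libraries, labelled as knockdowns of CSNK2B or of P300, were not analysed here, and none of the 9 is labelled as untransfected. The labels call the NC libraries biological replicates of this 1 line without saying what separates them, so the spread between them may be partly technical. Total estimated read counts were 17.8, 17.7 and 18.3 M in NC replicates 1, 2 and 3. Levels are in TPM, a transcript abundance that is scaled for gene length and sums to the same total in each library, so genes can be compared within it.

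The label was read against marker genes that were chosen with earlier results of these data known, and the neuroendocrine markers went against it. Small cell lung cancer is typically, though not in every subtype, a neuroendocrine tumour, known for dense-core secretory granules and synaptic vesicle proteins. Synaptophysin (SYP), a synaptic vesicle protein and a standard marker of that tumour, stood at 0.44, 0.63 and 0.38 TPM in NC replicates 1 to 3. In the same libraries villin (VIL1), an actin-bundling protein of the gut brush border, stood at 60.4, 60.1 and 59.6 TPM. VIL1 stood above most of its list. Of 43 enterocyte and intestinal surface genes with a row, 17 reached 1 TPM (39.5%, against 64.6% of all genes). The list's median was 0.510 TPM, against 8.12 TPM over all genes, so the list as a whole stood below the background. The cells are therefore called by their treatment, NC cells, and no other identity is given to them.

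As background, epithelia that descend from the foregut and midgut endoderm are specified by a set of transcription factors that includes the FOXA, GATA and HNF families. CDX2 sets the intestinal programme among them, SOX2 marks stomach and airway, and KLF5 and SOX9 are used in progenitor compartments. Their targets include brush-border proteins, mucins, trefoil factors and secreted antimicrobial proteins.

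Of the 17529 genes in the deposited table, 11324 (64.6%) reached 1 TPM in all 3 NC libraries, and 8076 (46.1%) reached 10 TPM. These shares are the background for every gene list below. The lists were chosen with earlier results of these data known, so the level of a list is a description and not an independent test. The median over all genes was 8.12 TPM, and 964 genes were listed at 0 TPM in all 3 libraries. With no read, a level of up to 3 counts of the total is possible for counting error alone, which is 0.164 CPM (read counts scaled to library size) in the deepest library and 0.170 CPM in the shallowest. Genes named at 0, or below the 6 highest of a list other than the neuroendocrine and lung lists, were chosen after their values were seen.

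The promoters of KLF5, MUC13 and SPINK4 are shown as examples from the lineage factor, intestinal surface and secretory lists described below. They were picked because each holds a short match to the motif of an endodermal factor, so they do not stand for their lists. Each line gives 220 bases, 250 to 31 before the start in RefSeq (build GRCh38.p14), read 5′ to 3′ on the gene's strand, with the match in capitals.
KLF5: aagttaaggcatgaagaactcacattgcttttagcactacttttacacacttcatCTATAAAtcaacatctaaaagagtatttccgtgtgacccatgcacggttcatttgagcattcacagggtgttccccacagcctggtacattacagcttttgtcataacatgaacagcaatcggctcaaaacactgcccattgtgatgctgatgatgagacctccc
MUC13: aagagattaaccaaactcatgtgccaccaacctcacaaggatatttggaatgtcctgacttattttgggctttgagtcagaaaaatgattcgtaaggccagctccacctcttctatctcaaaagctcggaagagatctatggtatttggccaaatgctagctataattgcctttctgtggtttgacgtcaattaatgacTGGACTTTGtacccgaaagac
SPINK4: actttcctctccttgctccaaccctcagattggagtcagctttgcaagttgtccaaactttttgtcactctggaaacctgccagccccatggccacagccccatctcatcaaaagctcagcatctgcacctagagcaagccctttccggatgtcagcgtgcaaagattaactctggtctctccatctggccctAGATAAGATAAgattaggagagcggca
The KLF5 stretch is chr13:73054726-73054945 on the plus strand, and its capitals match the CDX letters TTTATNG on the minus strand, in an overlap with the TATA box letters TATAAA. The MUC13 stretch is chr3:124934782-124935001 on the minus strand, with a match to the HNF4 letters CAAAGTCCA on its opposite strand, 51 to 43 bases before the start. The SPINK4 stretch is chr9:33239917-33240136 on the plus strand, with 2 matches to the GATA letters AGATAA that overlap each other. Over all 35116 RefSeq promoter windows, which run from 250 bases before to 50 after each start and were searched on both strands, 9.73% held the CDX letters, 10.3% the GATA letters and 0.384% the HNF4 letters. Among list genes at 1 TPM with a window, the CDX letters occurred in 4 of 15 lineage factors and the HNF4 letters in 1 of 12 enterocyte genes. The GATA letters occurred in 4 of 7 goblet, Paneth and enteroendocrine genes. For all genes with a window, the CDX, HNF4 and GATA shares were 11.9%, 0.472% and 12.4%, and for those at 1 TPM 8.41%, 0.478% and 7.32%. A match describes the sequence and does not show binding.

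The most abundant transcripts were those of ribosomal proteins, the MTRNR2L family, S100 proteins, iron storage and the cytoskeleton. The 50 most abundant genes held 25.2%, 25.4% and 24.4% of all TPM in NC replicates 1 to 3. Ribosomal protein genes (84 genes) held 18.7% ± 0.632 (SD, n = 3). Ferritin light chain (FTL), which stores iron together with the heavy chain, was the second most abundant gene with 12421, 12126 and 13037 TPM, and the heavy chain FTH1 had 5823, 5856 and 6084 TPM. The light chain thus exceeded the heavy chain by 2.12 ± 0.0391 times in every NC library (SD, n = 3), with no overlap of their values.

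**Figure D1:**
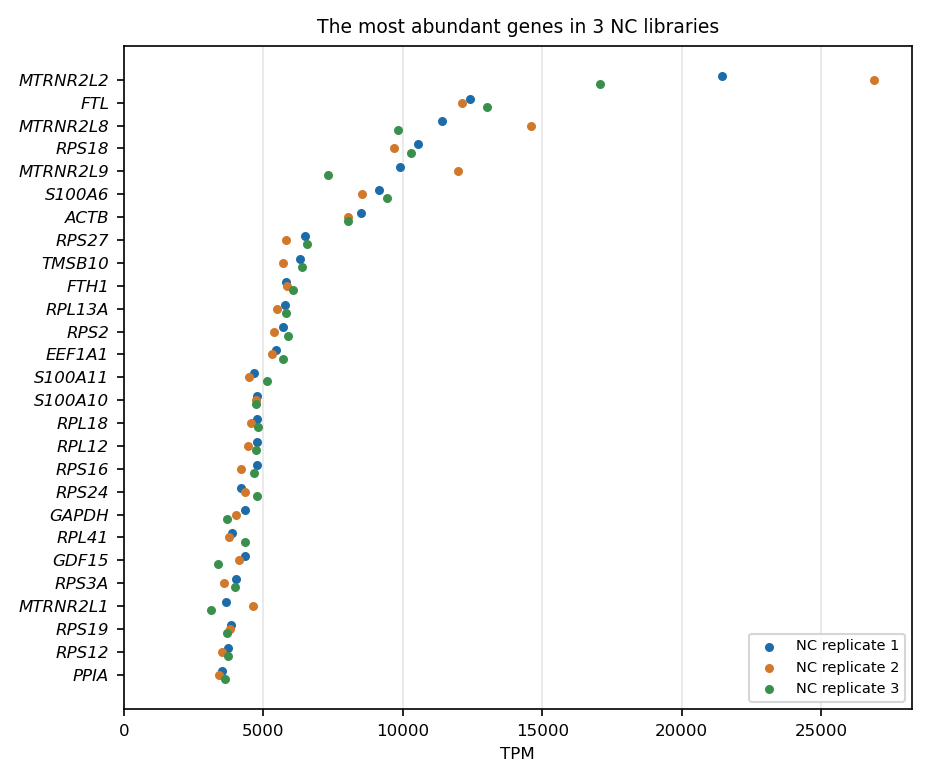
TPM (linear axis) of 27 of the 30 genes with the highest mean TPM, with 1 point for each of the 3 NC libraries. The MTRNR2L genes spread widely between libraries, with MTRNR2L2 between 17065 and 26909 TPM, while FTL kept between 12126 and 13037 TPM.

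The MTRNR2L genes, nuclear copies of mitochondrial ribosomal RNA sequence, contributed 4 of the 30 most abundant genes. MTRNR2L2 led the whole table with 21430, 26909 and 17065 TPM, and MTRNR2L8, MTRNR2L9 and MTRNR2L1 followed at means of 11947, 9740 and 3797 TPM. Together the 10 genes of this family took 4.84%, 6.05% and 3.89% of TPM. Their sequences are nearly identical to each other and to mitochondrial RNA, so the split of reads between them is uncertain.

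Among the S100 calcium-binding proteins, S100A6, abundant in proliferating cells and epithelia, had 9147, 8537 and 9439 TPM. S100A11 averaged 4768 ± 323 TPM and S100A10, the partner of annexin A2, averaged 4738 ± 20.3 TPM (SD, n = 3 each), and the ranges of these 2 genes overlapped. All 18 S100 genes took 2.20%, 2.11% and 2.29% of TPM. Beta actin (ACTB) had 8496, 8035 and 8053 TPM, the actin-sequestering thymosin TMSB10 averaged 6135 ± 361 TPM, and the elongation factor EEF1A1 averaged 5492 ± 207 TPM. GAPDH of glycolysis averaged 4013 ± 322 TPM and the prolyl isomerase PPIA 3518 ± 119 TPM. The remaining 16 of the 30 were the secreted factor GDF15 and 15 ribosomal protein genes. In order they included RPS18, RPS27, RPL13A, RPS2, RPL18, RPL12, RPS16, RPS24, RPL41, RPS3A, RPS19 and RPS12, from 10181 ± 440 TPM to 3659 ± 129 TPM. Several ribosomal protein genes have processed pseudogenes that can share reads with them.

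GDF15, a secreted member of the TGF-beta family that rises in stressed cells and in many carcinomas, was the most abundant of the secreted list. It had 4356, 4140 and 3373 TPM in NC replicates 1 to 3, and replicate 3 was the lowest.

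The neuroendocrine gene set was near 0. None of the 27 neuroendocrine markers and granule genes with a row reached 1 TPM in all 3 libraries, against 64.6% of all genes, and their median was 0.0333 TPM. Their summed estimated counts were 54.4, 59.7 and 56.8 reads of the 17.7 to 18.3 M in each library. The highest was DDC, the decarboxylase that makes dopamine and serotonin, at 0.69, 0.64 and 0.57 TPM, followed by SYP, whose values overlapped it. SCG2, a granule protein, stood at 0.52, 0.36 and 0.21 TPM. The remaining 24 members averaged 0.287 TPM or less.

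The granule proteins chromogranin A (CHGA) and chromogranin B (CHGB) stood at 0.07, 0.17 and 0.10 TPM and at 0.09, 0.04 and 0.17 TPM. PCSK1N, an inhibitor of prohormone convertases, averaged 0.287 TPM, and SCG5 0.133 TPM. ENO2, the neuronal enolase, stood at 0.18, 0.24 and 0.18 TPM. SYT1, the calcium sensor of vesicle release, averaged 0.0933 TPM, RTN1 0.0867 TPM and the neuronal RNA-binding protein ELAVL4 0.0833 TPM. DLL3, the Notch ligand targeted in small cell lung cancer, and SCG3 averaged 0.0667 TPM each. Below them came TAGLN3 at 0.0333, CPE at 0.0267, SEZ6 and SNAP25 at 0.01 each, and NCAM1 and PCSK1 at 0.00667 TPM each. UCHL1, STMN2, RET, BEX1, ELAVL3, KIF5C and GAL had 0 TPM in all 3 libraries. GRP, CALCA, SYT4, PCSK2, CADPS, CRMP1 and SST were not analysed here. Every neighbouring pair in this order overlapped in its library values, so neighbours were not told apart, although DDC lay above ENO2 and CHGA in every library. In bulk RNA, few cells with a transcript and little transcript per cell cannot be told apart.

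**Figure D2:**
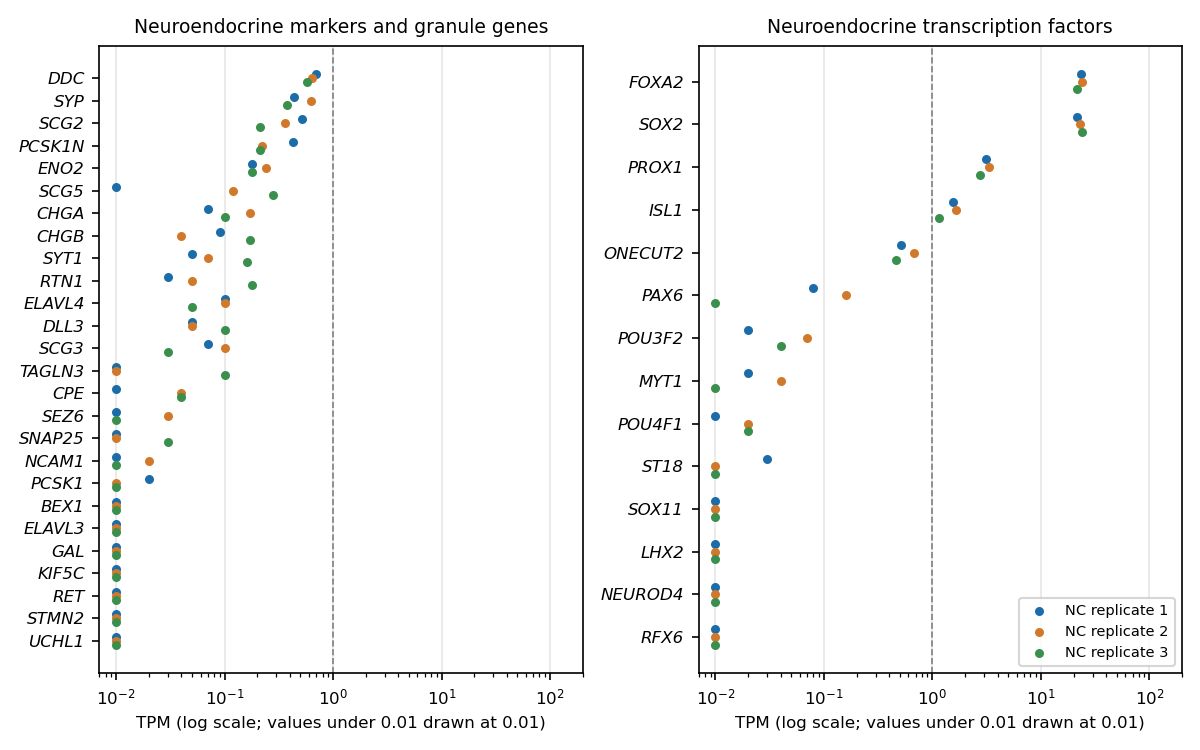
TPM (log axes, values under 0.01 drawn at 0.01) of 26 neuroendocrine markers and granule genes (left) and 14 neuroendocrine transcription factors (right), with 1 point per NC library and a dashed line at 1 TPM. All markers drawn lie left of the line, from DDC at a mean of 0.633 TPM downwards, while FOXA2 and SOX2 lie near 23.1 and 23.0 TPM.

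Small cell lung cancers are sorted into subtypes by the lineage factor they use, of which POU2F3 and YAP1 are examples. POU2F3, the factor of tuft cells, had 3.86, 4.49 and 3.50 TPM. YAP1, the coactivator of the Hippo pathway, had 136, 145 and 136 TPM, and all its values lay above all those of POU2F3. ATOH1, a secretory lineage factor of the gut also found in some of these tumours, had 0, 0 and 0.05 TPM, and NEUROD1 was not analysed here. Of the 4 factors with a row, 2 reached 1 TPM (50%, against 64.6% of all genes) and 1 reached 10 TPM (25%, against 46.1%).

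Among 15 neuroendocrine transcription factors with a row, 4 reached 1 TPM (26.7%, against 64.6% of all genes) and 2 reached 10 TPM (13.3%, against 46.1%). The median was 0.03 TPM. Both at 10 TPM are also endodermal factors: FOXA2 had 23.5, 24.2 and 21.6 TPM and SOX2 had 21.6, 23.1 and 24.2 TPM, with overlapping values. PROX1 averaged 3.05 ± 0.304 TPM and ISL1 1.45 ± 0.255 TPM (SD, n = 3 each). ONECUT2 averaged 0.547 TPM, and PAX6, POU3F2, MYT1, POU4F1, ST18 and SOX11 averaged 0.08 TPM or less. LHX2, NEUROD4 and RFX6 had 0 TPM in all 3 libraries, and NEUROD2, INSM1, NKX2-2, NKX2-1 and NEUROG3 were not analysed here. Members that 2 lists share, such as FOXA2 and SOX2 here and in the foregut list, are counted in each.

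The lung epithelial list was also low. Of 17 members with a row, 4 reached 1 TPM (23.5%, against 64.6% of all genes) and 1 reached 10 TPM (5.88%, against 46.1%). The median was 0.187 TPM. LAMP3, a lysosomal membrane protein of alveolar type 2 cells and of mature dendritic cells, had 13.4, 15.5 and 18.2 TPM. AGER, the receptor on alveolar type 1 cells, averaged 6.48 ± 0.631 TPM, the surfactant lipid transporter ABCA3 2.07 ± 0.428 TPM, and the protease NAPSA 1.14 ± 0.274 TPM. BPIFB1 averaged 1.13 TPM, the surfactant protein SFTPB 0.640 TPM, CAV1 0.600 TPM, TP63 0.267 TPM and KRT5 0.187 TPM. PDPN, SFTPD, FOXJ1, HHIP and SFTPA2 averaged 0.09 TPM or less, and BPIFA1, MUC5B and SCGB3A2 had 0 TPM in all 3 libraries. NKX2-1, SFTPA1, SFTPC, SCGB1A1 and SCGB3A1 were not analysed here.

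Transcription factors of foregut and intestine ranged widely, and as a group they stood near the background of all genes. Of 34 with a row, 25 reached 1 TPM (73.5%, against 64.6% of all genes) and 15 reached 10 TPM (44.1%, against 46.1%), with a median of 6.43 TPM, below the 8.12 TPM of all genes. KLF5, a zinc finger factor of proliferating gut epithelium, was the highest with 358, 384 and 349 TPM. ELF3, an epithelial ETS factor, had 311, 285 and 265 TPM, and SOX9, a progenitor factor, had 195, 188 and 213 TPM. The values of these 3 genes did not overlap, so their order held in every library. KLF4, used in differentiating epithelium, averaged 96.5 ± 5.21 TPM, and FOXA3 averaged 83.7 ± 3.02 TPM.

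HNF4A (gene ID 3172, chromosome 20, 44355700 to 44434596, plus strand in GENCODE 29 on GRCh38), the nuclear receptor that drives enterocyte and hepatocyte programmes, had 35.2, 34.8 and 35.9 TPM. CDX2 (gene ID 1045, chromosome 13, 27962137 to 27971139, minus strand) had 32.8, 34.0 and 39.0 TPM. Their ranges overlapped each other, and they stood at ranks 4087 and 4096 of 17529. SOX2 of the stomach and airway was read in the same libraries at 23.0 ± 1.28 TPM, and CDX2 exceeded it by 1.53 ± 0.0719 times (SD, n = 3). Bulk levels do not tell whether the same cells held both.

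The GATA factors of endoderm came in 2 steps. GATA4 had 41.9, 37.9 and 41.0 TPM and GATA6 had 41.3, 37.6 and 37.5 TPM, with overlapping values, while GATA5, chosen after its values were seen, had 6.98, 6.63 and 6.69 TPM. The WNT effector TCF7L2 averaged 43.5 ± 0.675 TPM. PITX1, GRHL2 and FOXA1, read after their values were seen, averaged 27.7, 25.2 and 16.7 TPM. Below 10 TPM came EHF at 6.31, PDX1 at 4.46 and HNF4G at 2.92 TPM, the last of which HNF4A exceeded by 12.3 ± 2.08 times. CDX1 was not analysed here.

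**Figure D3:**
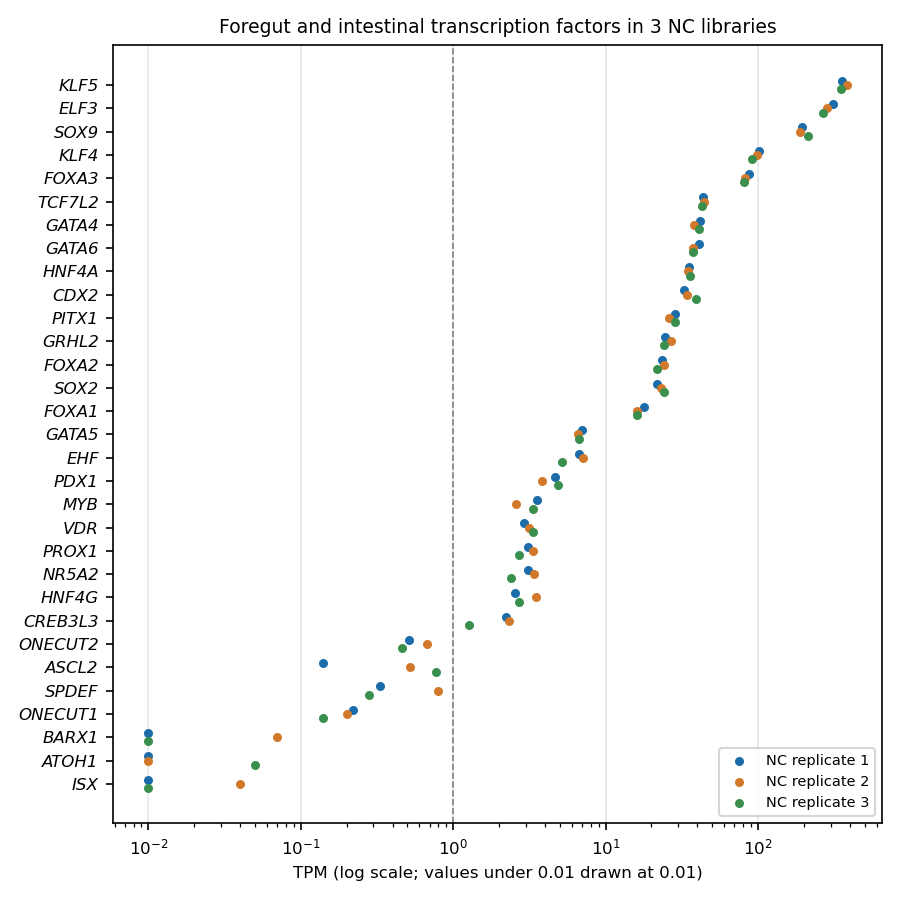
TPM (log axis, values under 0.01 drawn at 0.01) of 31 foregut and intestinal transcription factors, ordered by mean, with 1 point per NC library and a dashed line at 1 TPM. KLF5, ELF3 and SOX9 stand apart at the top, and HNF4A and CDX2 lie together near 35.3 and 35.2 TPM.

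Downstream intestinal genes were divided, with a few very high and most low. Of 43 enterocyte and intestinal surface genes with a row, 17 reached 1 TPM (39.5%, against 64.6% of all genes) and 12 reached 10 TPM (27.9%, against 46.1%). The median was 0.510 TPM. TSPAN8, a tetraspanin of gut carcinomas, had 680, 706 and 774 TPM. LGALS4, an intestinal galectin, had 205, 184 and 253 TPM. CDH17 (gene ID 1015, chromosome 8, 94127171 to 94217303, minus strand), the intestinal cadherin, had 89.8, 88.3 and 96.7 TPM. These 3 genes kept their order in every library.

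VIL1 (gene ID 7429, chromosome 2, 218419092 to 218453295, plus strand) averaged 60.01 ± 0.416 TPM (SD, n = 3). The membrane mucin MUC13 had 64.2, 59.2 and 64.6 TPM, and its values overlapped those of CEACAM6 at 60.4 ± 2.31 TPM. CEACAM1, an adhesion receptor, averaged 78.0 ± 6.43 TPM. CEACAM family members are close paralogs, so reads may be split between them. At the other end, and chosen after their values were seen, the fatty acid carrier FABP1 had 5.28, 4.72 and 6.66 TPM, and the disaccharidase SI averaged 0.00667 TPM. APOB, SLC26A3 and CA1 had 0 TPM in all 3 libraries, and CA4 was not analysed here. Among digestive enzymes and transporters of mature enterocytes, the peptidase ANPEP had 1.39, 1.62 and 1.20 TPM, and LCT, ALPI, SLC5A1, SLC15A1, DPP4 and MEP1A averaged under 1 TPM.

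The goblet, Paneth and enteroendocrine list was led by lysozyme. LYZ (gene ID 4069, chromosome 12, 69348341 to 69354234, plus strand), an antibacterial enzyme of Paneth cells, gastric glands, airway glands and macrophages, had 2952, 2803 and 2903 TPM and ranked 41 of 17529 genes. PLA2G2A, an antibacterial phospholipase of Paneth cells, had 698, 672 and 665 TPM. REG4 had 133, 107 and 150 TPM and REG1A had 123, 113 and 120 TPM, and the values of these 2 lectin-like secreted proteins overlapped. AGR2, a disulfide isomerase of mucus-making cells, averaged 51.7 ± 4.68 TPM, and SPINK4, a protease inhibitor of goblet cells, had 16.0, 13.1 and 11.5 TPM.

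Of 21 goblet, Paneth and enteroendocrine genes with a row, 8 reached 1 TPM (38.1%, against 64.6% of all genes). At 10 TPM there were 6 (28.6%, against 46.1%), and the median was 0.280 TPM. The gel-forming mucin MUC2 and the trefoil factor TFF3, chosen after their values were seen, averaged 0.107 and 0.0867 TPM, against the high levels of LYZ and PLA2G2A. CLCA1, AGR3 and RETNLB had 0 TPM in all 3 libraries, and DEFA5, DEFA6 and GCG were not analysed here.

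Stomach genes were also divided. Of 19 with a row, 8 reached 1 TPM (42.1%, against 64.6% of all genes) and 6 reached 10 TPM (31.6%, against 46.1%). The median was 0.910 TPM. CTSE, an aspartic protease of gastric surface cells, had 625, 558 and 596 TPM, and the membrane mucin MUC1 had 215, 192 and 186 TPM. TFF1, the trefoil factor of gastric pits, had 101, 82.0 and 97.6 TPM. CAPN8 averaged 17.8 ± 1.43 TPM and pepsinogen C (PGC) had 12.5, 11.6 and 15.03 TPM. The gel-forming mucins MUC5AC and MUC6 averaged 0.0167 and 0.00667 TPM, and these 2 were chosen after their values were seen. The membrane mucins MUC1 and MUC13 thus lay above the gel-forming mucins MUC2, MUC5AC and MUC6 in every library.

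Some liver genes were high beside others near 0. Of 24 hepatocyte genes with a row, 9 reached 1 TPM (37.5%, against 64.6% of all genes) and 5 reached 10 TPM (20.8%, against 46.1%). The median was 0.292 TPM. APOA2, a protein of high-density lipoprotein, had 630, 560 and 805 TPM, whereas APOA1, its partner, had 2.56, 2.51 and 2.24 TPM, a ratio of 276 ± 73.0 (SD, n = 3). Vitronectin (VTN), an adhesive plasma protein, had 359, 338 and 454 TPM. Albumin (ALB) and alpha-fetoprotein (AFP) averaged 0.0167 and 0.03 TPM, chosen after their values were seen.

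The 3 fibrinogen chains, which assemble in equal numbers into 1 clotting protein, stood at unequal levels. FGG had 213, 224 and 183 TPM, FGA had 84.8, 76.7 and 62.7 TPM, and FGB had 13.7, 15.4 and 11.3 TPM. FGG exceeded FGA by 2.78 ± 0.233 times and FGA exceeded FGB by 5.58 ± 0.597 times, and no values overlapped. All 3 chains were lowest in replicate 3, in which APOA2 and VTN were highest.

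Lists of pancreatic, breast luminal, prostate, squamous and trophoblast genes held between 0 and 4 members at 10 TPM. Of 10 pancreatic genes with a row, 6 reached 1 TPM (60%, against 64.6% of all genes) and 4 reached 10 TPM (40%, against 46.1%). The median was 3.41 TPM. The trypsinogens PRSS2 and PRSS1, close paralogs, averaged 99.0 ± 5.95 and 52.9 ± 5.76 TPM, and the chloride channel CFTR, which is also found in gut crypts and airway, had 74.4, 82.5 and 73.2 TPM. The trypsin inhibitor SPINK1 averaged 23.1 ± 3.06 TPM, PDX1 4.46 TPM and CEL 2.35 TPM.

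Of 8 breast luminal genes with a row, 3 reached 10 TPM (37.5%, against 46.1% of all genes). They were KRT19, XBP1 and TFF1, which the epithelial, stress and gastric lists also hold. The oestrogen receptor ESR1 had 0.94, 1.15 and 0.49 TPM and GATA3 had 0 TPM in all 3 libraries. Of 9 prostate genes, 6 reached 1 TPM (66.7%, against 64.6% of all genes) and none reached 10 TPM (against 46.1%). TMPRSS2 was the highest at 9.72 ± 0.950 TPM. Of 16 squamous genes, 6 reached 1 TPM (37.5%, against 64.6% of all genes) and 1 reached 10 TPM (6.25%, against 46.1%). The gene at 10 TPM was KRT17 with 152, 146 and 155 TPM. The other keratins of that list were lower, with KRT15 at 5.83, KRT16 at 3.39, KRT6A at 1.23, KRT14 at 0.713, KRT6B at 0.687 and KRT5 at 0.187 TPM.

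Of 20 trophoblast genes, 6 reached 1 TPM (30%, against 64.6% of all genes) and 2 reached 10 TPM (10%, against 46.1%). PAGE4, an X-linked gene of placenta and prostate, had 273, 270 and 360 TPM. The pregnancy-specific glycoprotein PSG11 averaged 16.9 ± 2.37 TPM, with reads that its close paralogs may share. Medians were 0.437 TPM for the breast list, 2.24 TPM for the prostate list, 0.558 TPM for the squamous list and 0.228 TPM for the trophoblast list.

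**Figure D4:**
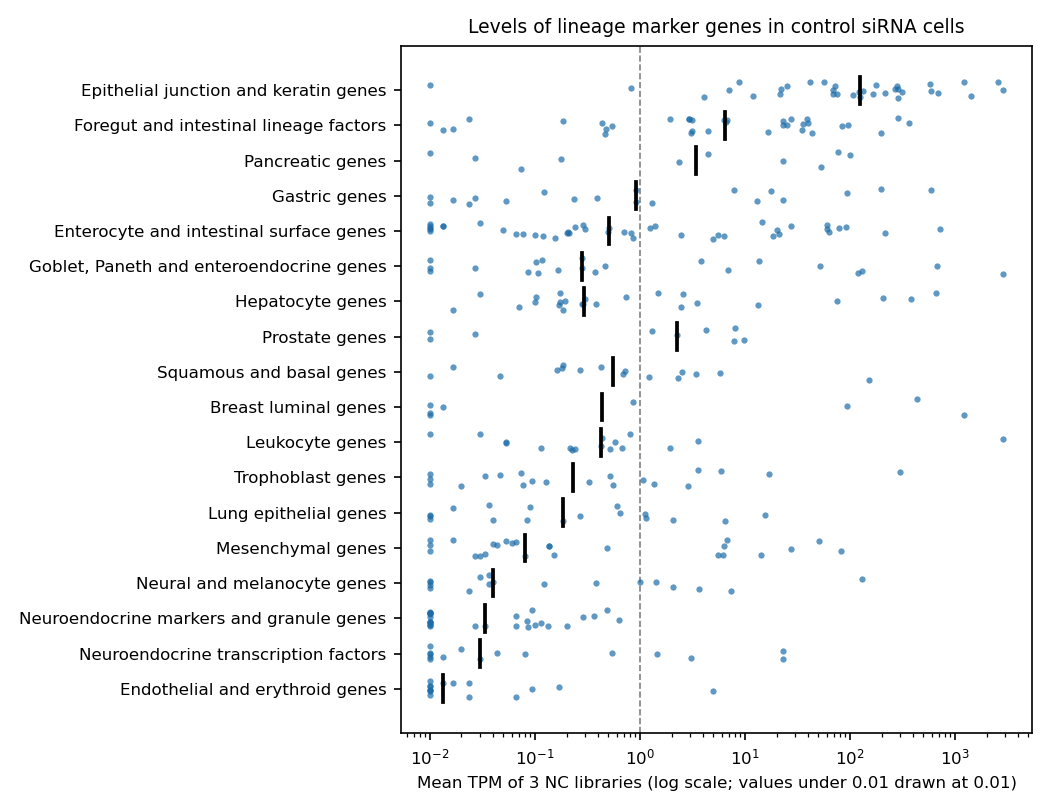
Mean TPM of 3 NC libraries (log axis, values under 0.01 drawn at 0.01) for each gene of 18 lineage lists, with 1 point per gene, a black bar at the list median and a dashed line at 1 TPM. The epithelial list has its median at 124 TPM, and the neuroendocrine marker list at 0.0333 TPM with every gene left of the line.

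Genes of simple epithelium were high as a group. Of 34 epithelial junction and keratin genes, all with a row, 32 reached 1 TPM (94.1%) and 29 reached 10 TPM (85.3%), against 64.6% and 46.1% of all genes, and the median was 124 TPM. The paired keratins of simple epithelium, KRT18 and KRT8, had 2782, 2728 and 3030 TPM and 2555, 2349 and 2782 TPM, a ratio of 1.11 ± 0.0417 (SD, n = 3). The protease inhibitor SPINT2 averaged 1434 ± 70.8 TPM and KRT19 1206 ± 74.5 TPM. The adhesion molecule EPCAM had 655, 703 and 700 TPM. The tight junction proteins CLDN4 and CLDN7 averaged 585 ± 47.0 and 584 ± 16.2 TPM, which were not told apart.

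The classical epithelial cadherin did not share these levels. CDH1, chosen after its values were seen, had 7.35, 7.27 and 6.59 TPM, and EPCAM exceeded it by 97.3 ± 8.63 times. CDH17, the intestinal cadherin, was the higher of the pair in every library. CLDN3 had 0 TPM in all 3 libraries and KRT20 averaged 0.823 TPM, both also chosen after their values were seen. KRT7 averaged 4.06 ± 0.215 TPM.

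Mesenchymal genes were mostly low. Of 25 with a row, 8 reached 1 TPM (32%, against 64.6% of all genes) and 4 reached 10 TPM (16%, against 46.1%). The median was 0.08 TPM, and TWIST1 was not analysed here. TAGLN, an actin-binding protein, had 78.2, 80.3 and 90.6 TPM, S100A4 averaged 51.0 ± 4.49 TPM and COL6A1 27.3 ± 2.09 TPM. SNAI1, a repressor of CDH1, had 12.3, 12.9 and 17.8 TPM. Smooth muscle actin ACTA2 averaged 6.79 TPM and the intermediate filament vimentin (VIM) 6.35 ± 0.487 TPM. Fibronectin (FN1), chosen after its values were seen, averaged 0.04 TPM.

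Most leukocyte, endothelial, erythroid, neural and melanocyte markers were low, with LYZ and TUBB3 as the exceptions above 10 TPM. Of 17 leukocyte genes with a row, 3 reached 1 TPM, namely LYZ, LCP1 and CSF1R (17.6%, against 64.6% of all genes). The list's summed level of 2961, 2814 and 2912 TPM was almost wholly LYZ. PTPRC, the defining surface phosphatase of leukocytes, had 0.59, 0.93 and 0.51 TPM. CD14 averaged 0.440 TPM and was chosen after its values were seen. Of 15 endothelial and erythroid genes, EPOR alone reached 1 TPM (6.67%, against 64.6% of all genes), at 5.00 ± 0.966 TPM. Their summed level was 5.04, 6.68 and 4.58 TPM, and HBB, HBG2, KDR and ALAS2 had 0 TPM. Of 17 neural and melanocyte genes, 5 reached 1 TPM (29.4%, against 64.6% of all genes). The neuronal tubulin TUBB3 had 131, 126 and 130 TPM, and MBP averaged 7.42 ± 0.148 TPM. Glial GFAP averaged 0.0233 TPM, and DBH, OLIG2 and SOX10 had 0 TPM, these also chosen after their values were seen.

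Receptor tyrosine kinases, which pass growth factor signals to the cell, were described by level. Of 48 with a row, 26 reached 1 TPM (54.2%, against 64.6% of all genes) and 18 reached 10 TPM (37.5%, against 46.1%). The median was 2.37 TPM. EPHA2, an ephrin receptor of epithelia, was the highest with 283, 270 and 244 TPM, and no other receptor of the list overlapped it. PTK7, DDR1, RYK, EPHB4 and MET followed at means of 72.1, 70.2, 61.5, 61.4 and 54.9 TPM, and the neighbours among them overlapped except DDR1 with RYK and EPHB4 with MET.

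Of the ERBB family, ERBB2 had 54.8, 53.4 and 51.6 TPM, EGFR had 36.6, 42.4 and 35.2 TPM, ERBB3 had 24.2, 23.9 and 23.3 TPM, and ERBB4 averaged 0.00333 TPM. ERBB2 exceeded EGFR by 1.41 ± 0.130 times, and none of the 4 overlapped another. FGFR1, amplified in some lung cancers, had 0.16, 0.33 and 0.26 TPM, and KIT, RET, FLT3 and KDR had 0 TPM in all 3 libraries. Apart from the 6 highest, these receptors were chosen after their values were seen, and ALK and EPHA7 were not analysed here.

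Other surface receptors were common. Of 54, all with a row, 51 reached 1 TPM (94.4%, against 64.6% of all genes) and 41 reached 10 TPM (75.9%, against 46.1%). The median was 35.5 TPM. The complement regulator CD55 had 672, 756 and 811 TPM, the tetraspanin CD9 averaged 561 ± 11.9 TPM, and TNFRSF12A, the TWEAK receptor, 530 ± 8.37 TPM. Integrin subunits ITGB1 and ITGA6, which bind laminin as a pair, averaged 438 ± 11.5 and 164 ± 4.26 TPM. The interferon gamma receptor chain IFNGR2 averaged 227 ± 9.12 TPM. LGR5, the R-spondin receptor that marks intestinal crypt stem cells, had 77.9, 84.3 and 78.1 TPM, while PROM1, another progenitor marker, averaged 0.01 TPM. CXCR4, a chemokine receptor, averaged 0.150 TPM, and these last 3 were chosen after their values were seen.

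Of 44 nuclear receptors with a row, 28 reached 1 TPM (63.6%, against 64.6% of all genes) and 16 reached 10 TPM (36.4%, against 46.1%). The median was 3.02 TPM. The clock repressor NR1D1 had 56.0, 57.5 and 47.5 TPM, and its values overlapped those of the immediate early receptor NR4A1 at 51.3 ± 4.63 TPM. NR2F6 averaged 49.6 ± 2.90 TPM, ESRRA, a regulator of mitochondrial genes, 48.3 ± 3.75 TPM and the oxysterol receptor NR1H2 41.0 ± 1.58 TPM. HNF4A was the next in order. The bile acid receptor NR1H4 and the xenobiotic receptor NR1I2 had 0 TPM in all 3 libraries, both chosen after their values were seen. PGR and NR0B1 were not analysed here.

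**Figure D5:**
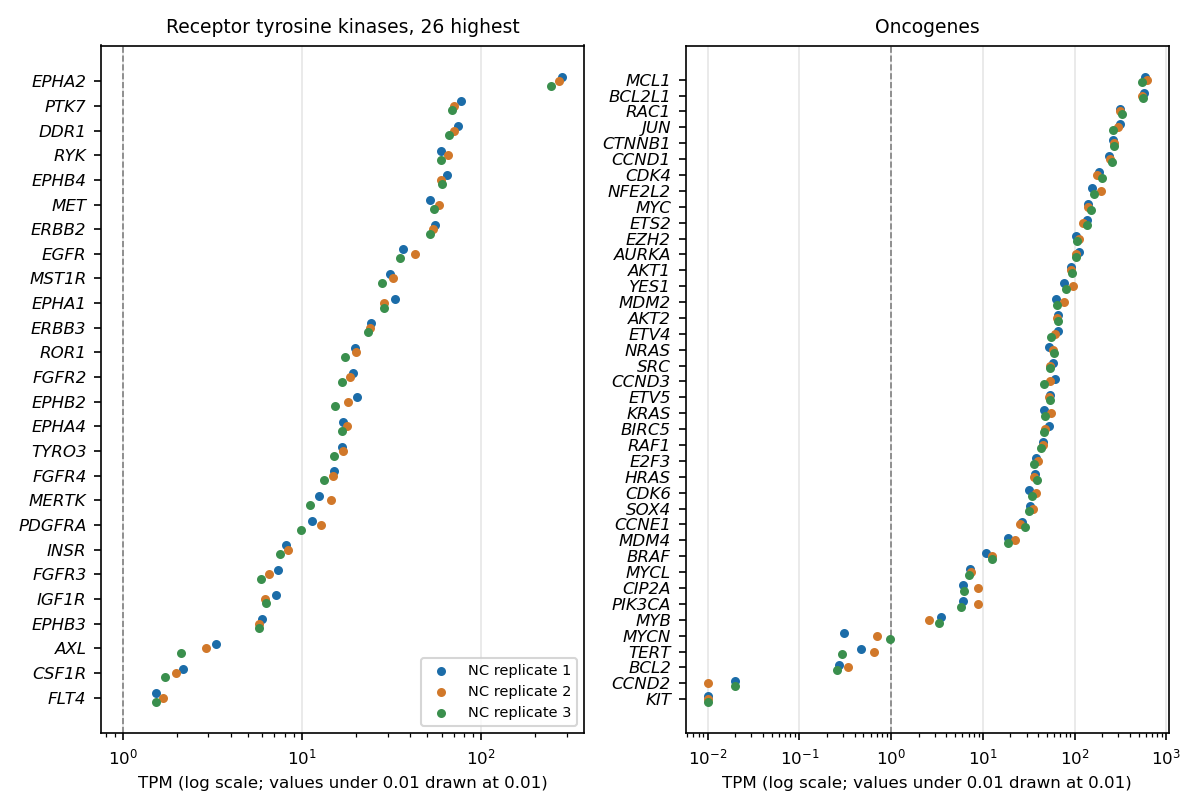
TPM (log axes) of the 26 highest receptor tyrosine kinases (left) and of 40 oncogenes (right, values under 0.01 drawn at 0.01), with 1 point per NC library and a dashed line at 1 TPM. EPHA2 stands alone at 244 to 283 TPM, MCL1 leads the oncogenes at a mean of 581 TPM, and KIT lies at 0.

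Of 40 oncogenes, all with a row, 35 reached 1 TPM (87.5%, against 64.6% of all genes) and 31 reached 10 TPM (77.5%, against 46.1%). The median was 53.6 TPM. The survival proteins MCL1 and BCL2L1 led with 589, 610 and 543 TPM and 570, 538 and 561 TPM, and their values overlapped. BCL2, the relative that neuroendocrine small cell lung cancers usually express, had 0.27, 0.34 and 0.26 TPM and was chosen after its values were seen. RAC1, a GTPase of the cytoskeleton, averaged 319 ± 8.06 TPM, the AP-1 subunit JUN 289 ± 26.2 TPM and the WNT effector CTNNB1 268 ± 4.95 TPM.

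MYC (gene ID 4609, chromosome 8, 127735434 to 127741434, plus strand) had 141, 140 and 150 TPM. MYCL, the paralog named for its amplification in lung cancer, had 7.22, 7.49 and 7.09 TPM, and MYC exceeded it by 19.8 ± 1.24 times. MYCN had 0.31, 0.71 and 0.97 TPM. The order MYC, MYCL, MYCN held in every library, with MYCL and MYCN chosen after their values were seen. Among the D cyclins, which start the cell cycle with CDK4 or CDK6, CCND1 averaged 246 ± 11.2 TPM, CCND3 53.7 ± 7.12 TPM and CCND2 0.0133 TPM. CCND1 exceeded CCND3 by 4.65 ± 0.843 times, and CCND2 and CCND3 were likewise chosen after their values were seen.

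Of 40 tumour suppressors, 39 reached 1 TPM (97.5%, against 64.6% of all genes) and 27 reached 10 TPM (67.5%, against 46.1%). The median was 17.9 TPM. The member below 1 TPM was CDKN2A, which encodes p16 and ARF, with 0.06, 0 and 0.04 TPM. Its neighbours on chromosome 9, CDKN2B and MTAP, had 54.0, 60.6 and 65.0 TPM and 35.1, 34.6 and 34.0 TPM. CDKN2A and MTAP were chosen after their values were seen.

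The cyclin-dependent kinase inhibitor CDKN1A had 312, 306 and 285 TPM, and CDKN1B averaged 170 ± 5.14 TPM. VHL averaged 65.5 ± 0.898 TPM, CDKN2B 59.9 ± 5.57 TPM, TGFBR2 57.8 ± 1.03 TPM and KEAP1 53.8 ± 1.64 TPM. RB1, which is commonly lost in small cell lung cancer, had 28.1, 31.6 and 27.9 TPM and was chosen after its values were seen. A transcript level says nothing of mutation.

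YAP1 (gene ID 10413, chromosome 11, 102110461 to 102233423, plus strand) was read with a list of its partners, targets and inhibitors. The inhibitors include LATS1 and LATS2, so a count over the list is not a measure of YAP1 activity. Of 16 YAP and TEAD genes, 15 reached 1 TPM (93.75%, against 64.6% of all genes) and 13 reached 10 TPM (81.25%, against 46.1%). The median was 35.1 TPM. The target ANKRD1 had 523, 560 and 387 TPM, the LIM protein AJUBA averaged 220 ± 7.17 TPM, and the target CCN2 194 ± 16.6 TPM. CCN1, another target, averaged 71.6 ± 5.41 TPM and AMOTL2 56.1 ± 0.729 TPM. YAP1 exceeded its paralog WWTR1 by 17.4 ± 0.560 times. AXL, another gene of the list, was low with 3.31, 2.90 and 2.12 TPM. The member below 1 TPM was AMOT at 0.303 TPM, which, like WWTR1 and AXL, was chosen after its values were seen.

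All 26 proliferation genes reached 10 TPM (100%, against 46.1% of all genes), with a median of 83.2 TPM. The ubiquitin-conjugating enzyme UBE2C averaged 527 ± 12.3 TPM, the sliding clamp PCNA 405 ± 26.1 TPM and cyclin B1 (CCNB1) 187 ± 4.56 TPM. TYMS averaged 187 ± 6.92 TPM, CDK1 147 ± 7.52 TPM and TK1 141 ± 3.19 TPM.

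Secreted growth factors, cytokines and proteases covered a wide range. Of 69 with a row, 47 reached 1 TPM (68.1%, against 64.6% of all genes) and 36 reached 10 TPM (52.2%, against 46.1%). The median was 12.9 TPM, and CCL2 was not analysed here. After GDF15 came the cytokine MIF at 906 ± 42.3 TPM, the heparin-binding factor MDK at 700.1 to 754 TPM and the protease inhibitor CST3 at 604 ± 5.35 TPM. The collagenase MMP1 had 420, 435 and 524 TPM and the angiogenic factor VEGFA had 411, 424 and 380 TPM. Among the EGFR ligands, HBEGF averaged 104 ± 5.16 TPM and TGFA 17.6 TPM, whereas EREG had 0.05, 0.19 and 0.06 TPM and AREG averaged 0.03 TPM. The ligands were chosen after their values were seen.

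Stress response genes, a list chosen with earlier results of these data known, were high as a group. No library is labelled as untransfected, so an effect of transfection was not tested. All 38 reached 1 TPM (100%, against 64.6% of all genes) and 37 reached 10 TPM (97.4%, against 46.1%). The median was 378 TPM, against 8.12 TPM over all genes. Haem oxygenase HMOX1 had 1739, 1907 and 1281 TPM. The chaperones HSPA1B, HSPA5 and HSP90AB1 averaged 1431 ± 50.2, 1301 ± 73.0 and 1100 ± 5.27 TPM, with HSPA1B close in sequence to HSPA1A, so that reads may be split. ATF4, the factor of the integrated stress response, averaged 1199 ± 49.6 TPM, and its target asparagine synthetase (ASNS) 1165 ± 34.8 TPM.

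Genes of antigen presentation and interferon response were mostly present. Of 28, 23 reached 1 TPM (82.1%, against 64.6% of all genes) and 21 reached 10 TPM (75%, against 46.1%). The median was 46.8 TPM. The class I light chain B2M had 1763, 1816 and 1991 TPM. Among the heavy chains, whose genes may share reads, HLA-B averaged 535 ± 18.1 TPM. The interferon-stimulated genes IFI6, IFI27 and ISG15 averaged 730 ± 46.1, 693 ± 95.3 and 605 ± 60.6 TPM, with overlapping values between neighbours. Class II transcripts were near 0, with HLA-DRA at 0.03 TPM. The DNA sensor CGAS had 49.4, 53.7 and 51.9 TPM while its effector STING1 had 1.42, 0.98 and 1.01 TPM, and these 3 genes were chosen after their values were seen.

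HOX genes, which record position along the body axis, reached 1 TPM in 2 of their clusters. Of 30 with a row, 12 reached 1 TPM (40%, against 64.6% of all genes) and 3 reached 10 TPM (10%, against 46.1%). The median was 0.173 TPM. HOXB9 had 61.2, 61.5 and 56.5 TPM, HOXB6 had 29.3, 31.4 and 28.1 TPM, and HOXB5 had 10.1, 11.4 and 10.1 TPM, in an order that held in every library. HOXC4, HOXB3 and HOXB8 averaged 6.06, 4.56 and 3.98 TPM. All 12 members at 1 TPM belonged to the HOXB and HOXC clusters, and no HOXA or HOXD gene with a row averaged more than 0.220 TPM. HOXA2, HOXA5, HOXA9, HOXA11, HOXB1, HOXD1, HOXD3, HOXD8 and HOXD9 were not analysed here.

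Of 21 cancer testis and oncofetal genes with a row, 3 reached 1 TPM (14.3%, against 64.6% of all genes). At 10 TPM there were 2 (9.52%, against 46.1%), and the median was 0.0567 TPM. The chromatin proteins HMGA1 and HMGA2 averaged 688 ± 29.6 and 19.7 ± 0.446 TPM, and the RNA-binding protein IGF2BP3 averaged 9.67 ± 2.23 TPM. The telomerase subunit TERT averaged 0.470 TPM, MAGEA10 0.393 TPM and SSX1 0.113 TPM. All 20 genes used in every cell reached 10 TPM (100%, against 46.1% of all genes), with a median of 1351 TPM.

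The 3 NC libraries differed little among themselves. Over 11324 genes, log2(TPM + 1) correlated at 0.996 between replicates 1 and 2, 0.997 between 1 and 3 and 0.995 between 2 and 3, a description across genes, which are not independent replicates. For the 8294 genes with a mean of 10 TPM or more, the median SD of log2(TPM + 1) was 0.0786 and the median coefficient of variation 5.63%, and 8 genes had an SD above 0.5. The biological coefficient of variation fitted by edgeR to the 3 libraries was 7.55%. It was 8.88% without replicate 1, 5.71% without replicate 2 and 7.72% without replicate 3. Of the 100 most variable genes, 81 were highest in replicate 2, and 64 were lowest in replicate 3.

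The 10 genes with the largest spread were IGFL4, MAB21L3, ADM, CKMT1B, NKTR, NPIPB11, ANKRD37, PI3, BHLHE40 and U2AF1L5. IGFL4 had 20.2, 40.5 and 17.8 TPM, MAB21L3 8.55, 18.5 and 9.59 TPM and NKTR 8.05, 15.8 and 8.08 TPM, with replicate 2 apart from the others. NPIPB11 had 20.1, 34.2 and 16.8 TPM in the same pattern, and it belongs to a family of near-identical copies. CKMT1B had 21.4, 12.4 and 26.5 TPM, lowest in replicate 2, and shares its sequence with CKMT1A. U2AF1L5, a copy of a splicing factor gene, had 139, 97.0 and 190 TPM. The elafin gene PI3 had 19.8, 18.3 and 35.6 TPM, highest in replicate 3. The genes targeted in the other libraries of the study, CSNK2B and EP300, had 383, 343 and 363 TPM and 8.38, 10.6 and 8.50 TPM in the NC cells.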

How the data were processed

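RNA-seq values of 9 libraries were deposited by the authors in 1 table of 17529 genes, and only the 3 NC libraries were used. Per the submitters' processing notes, HISAT and Bowtie2 were used, without stated versions, on build GRCh38.p13. The counting tool, gene annotation and strand setting are not given in the sources used here, so reads of a gene and its antisense partner may not be separated. Per the file headers, the TPM columns are length-scaled values made by the authors, with 1 missing value, the FPKM columns are the authors' other length-scaled values, used in an alternative, and the read counts are the authors' estimates (expected counts), which were not scaled between libraries. The other 27 single-library columns were not used.

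Each gene is given as TPM per library, with mean and SD (n = 3). A gene reached a level when all 3 libraries did. Spread is the SD of log2(TPM + 1), with a pseudocount of 1. Expected counts were rounded for the biological coefficient of variation (edgeR 4.0.16 in R 4.3.3), a step tested on simulated data. Tables were made with Python 3.11.15. No groups were compared, so there is no p-value. Promoter motifs were searched in RefSeq windows, and printed stretches hold no exon of GENCODE 29.

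The 33 lists hold 869 symbols, of which 797 had a row and 72 are not analysed here. The members and lists were chosen with earlier results of these data known. Named by rule are the 30 most abundant genes, the marked genes CDX2, HNF4A, VIL1, CDH17, LYZ, YAP1, MYC and SYP, the 6 highest members of each list, every neuroendocrine and lung gene, and the 10 most variable genes with a mean of at least 10 TPM. Any other gene named was chosen after its values were seen. Several genes are counted in the lists but not reported by name here.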

Additional observations from a re-analysis of the deposited data

How the results depend on the processing

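The number of genes at 1 TPM in all 3 NC libraries was 11324 and ran from 10709 (threshold of 2 TPM) to 11935 (threshold of 0.5 TPM), and that at 10 TPM was 8076 and ran from 5814 (threshold of 20 TPM) to 9511 (threshold of 5 TPM). Using FPKM scaled to the TPM total, the mean over libraries, a minimum of 10 counts, no MTRNR2L genes, or leaving out a library kept both counts within these ranges. The share of all TPM in the 50 most abundant genes, 25.01%, was 24.8% to 25.3% without 1 library, 22.4% without the MTRNR2L genes and 13.5% as counts in CPM, which are not scaled for length. The median spread between NC libraries over genes at 1 TPM was 0.0888, and it ran from 0.0638 without replicate 2 to 0.0940 with a pseudocount of 0.1 TPM. It was 0.0833 without replicate 1 and 0.0705 without replicate 3. The runs without 1 library rest on fewer libraries, all lay below the main value, and were chosen after the data were seen. All 462 counts of list members under the alternatives lay within 1.5 times the reported count, but 28 of 33 list medians moved with a minimum of 10 counts, which removes low members, and 10 moved without the MTRNR2L genes. Without the MTRNR2L genes, levels were compared for 818 genes, namely list members with a row and the rest of the 30 most abundant. Of these, 175 moved by more than their SD, or a small fixed bound where the SD was smaller, since every remaining TPM then rises. Genes with under 10 counts per library are limited by depth. No paired analysis was possible because the NC libraries are 1 group and no groups were compared.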

Other observations

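Some of the genes that varied most between the NC libraries are known to be induced by low oxygen, and the genes below were chosen after their values were seen. The vasodilator peptide ADM had 13.7, 11.7 and 6.19 TPM in NC replicates 1 to 3. ANKRD37 had 51.8, 35.2 and 25.2 TPM, BHLHE40 had 148, 127 and 77.4 TPM, and the lipid droplet protein HILPDA had 40.5, 31.0 and 20.4 TPM. The glucose transporter SLC2A3 had 435, 349 and 229 TPM. In each of these 5 genes, replicate 3 was the lowest and replicate 1 the highest. NDRG1, PDK1, EGLN3 and PFKFB4 were also lowest in replicate 3, with 48.1, 11.4, 115 and 5.19 TPM there, against 74.7, 17.3, 186 and 13.1 TPM in replicate 1. VEGFA was lowest in replicate 3 as well but differed less, between 380 and 424 TPM. CA9, a membrane carbonic anhydrase induced by the same pathway, stayed at 0.14, 0.57 and 0.27 TPM and did not follow this order.

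Promoter motifs were counted in the lists as a description. Of 7 goblet, Paneth and enteroendocrine genes at 1 TPM with a RefSeq window, 5 held the TATA box letters TATAAA (CCK, REG1A, REG3A, REG4 and SPINK4). Of 34 stress response genes with a window, 12 held them, among them ATF3, ATF4, FOS, HSPA1B and MT2A. None of 7 hepatocyte genes did. The letters also occurred in 4 of 15 lineage factors, 2 of 12 enterocyte genes, 3 of 6 gastric genes and 3 of 17 neuroendocrine markers. The share was 14.0% of all genes with a window and 8.25% of those at 1 TPM. The GATA letters AGATAA occurred in 5 of 7 hepatocyte genes at 1 TPM with a window (APOA2, APOE, FGG, SERPINA3 and VTN) and in 6 of 15 lineage factors (CDX2, CREB3L3, EHF, HNF4A, NR5A2 and TCF7L2), but in 0 of 12 enterocyte genes and 0 of 6 gastric genes, against 12.4% of all genes with a window and 7.32% of those at 1 TPM. They also occurred in 5 of 17 neuroendocrine markers with a window, a list near 0 TPM. Whether a match goes with the level of a gene was not tested. The HNF4 letters occurred in 0 of 15 lineage factors, 1 of 12 enterocyte, 1 of 7 goblet, 0 of 6 gastric and 0 of 7 hepatocyte genes. In the same lists the CDX letters occurred in 4, 1, 3, 1 and 0 genes. Of 17 neuroendocrine markers, 0 held the HNF4 letters and 3 the CDX letters. The HNF4 letters occurred in 0.472% of all genes with a window and in 0.478% of those at 1 TPM. For the CDX letters these shares were 11.9% and 8.41%.

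Other hormones and an oxidase of the gut were read in the same libraries. INHBE, an inhibin subunit of liver, had 72.7, 65.4 and 79.2 TPM and the metabolic hormone FGF21 had 20.5, 22.1 and 21.7 TPM. The NADPH oxidase NOX1, known from colon epithelium, had 15.8, 15.8 and 19.9 TPM. The gut hormone CCK had 6.69, 7.18 and 6.90 TPM, while PYY, GIP and NTS averaged 0.280, 0.103 and 0.117 TPM. These genes were chosen after their values were seen.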
